A study of Mus musculus with 12 samples.

Results

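The distal H3K27ac regions listed in RIP140-null cardiomyocytes (CMs) and not in control CMs, and assembled from at least 3 replicate-level regions, are described here. They were chosen by measured values of the 2 deposited lists of H3K27ac-enriched regions, 1 list per genotype. A KO region was taken if it lay on chromosomes 1 to 19 or X, was under 10000 bp wide, shared no base with any control region, carried a subpeak number of 3 or more, and had its center more than 1000 bp and at most 100 kb from the nearest TSS of a protein-coding gene. This gave 726 of the 45517 regions of the KO list, and both lists together held 99267 regions on these chromosomes. H3K27ac was mapped by CUT&RUN, in which an antibody directs a nuclease to chromatin and the released DNA is sequenced. Each experiment took 200000 CMs from male mice of 10 to 12 weeks, enriched by low-speed centrifugation, so that other heart cells may remain. Controls were Nrip1 f/f Cre- littermates, and csNrip1-/- animals were Nrip1 f/f Cre+, with Cre under the Nkx2.5 promoter, both on a C57BL/6J background. Each genotype had 3 H3K27ac libraries and 3 IgG libraries as background. Both genotypes carry the floxed allele, and only csNrip1-/- animals carry Cre, so that effects of Cre and of the loss of RIP140 cannot be told apart. The Nkx2.5 promoter is active from early heart development, so that the allele is lost before birth.

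H3K27ac is an acetylated form of histone H3 that marks active promoters and enhancers, and distal regions that carry it are commonly read as candidate enhancers. RIP140, encoded by *Nrip1*, is a corepressor that is recruited by nuclear receptors, among them the estrogen-related receptors (ERRs) and PPARs, and that brings histone deacetylases to chromatin. In CMs, ERRs and PPARs control genes of fatty acid and mitochondrial metabolism, while MEF2, GATA, TEAD, SRF and NKX2-5 factors control genes of the contractile cell.

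The subpeak number in the name of a region is the number of replicate-level regions that were merged into it. Its lowest value in either list is 2, since a region had to be found in at least 2 of the 3 replicates. A value of 3 or more therefore means more than the smallest possible support, and it does not count summits of the signal. The number was 3 for 638 of the 726 regions, 4 for 69, 5 for 16 and 6 for 3. Because a replicate may give more than 1 of the merged regions, the number does not show that all 3 replicates were involved. Just inside the limits lay regions of 9821 bp at *Fam98a*, 1013 bp from a TSS of *Sav1*, 97529 bp from a TSS of *Sema6d*, and 20 bp from a control region at *Ahcyl2*. Just outside lay regions of 10712 bp at *Zhx3*, 997 bp from a TSS of *Shmt1*, 101104 bp from a TSS of *Mtx2*, and a region at *Cgnl1* that shared 5 bp with the control list. Each list pools its replicates and gives no signal, so that depth and replicate error are unknown and no test between genotypes was possible. Shares are given with Wilson 95% intervals and differences of shares with Newcombe 95% intervals. These cover counting error over regions only, and neighboring regions are not independent.

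Sequences are shown for 3 wide KO-only distal regions near genes of energy regulation and calcium handling that hold a match to the ERR motif, spelled TNAAGGTCA, or the MEF2 motif, named only. Each stretch of 150 bases is GRCm38 sequence, with the match in capitals and the strand chosen so that the match reads forward. The regions lie in an intron of *Cacna1c*, which encodes the pore subunit of the L-type calcium channel, and in intergenic DNA upstream of *Slc8a1*, the sodium-calcium exchanger, and of *Ppara*, the nuclear receptor of fatty acid oxidation. None of the printed bases is annotated as UTR.
*Cacna1c* ERR, chr6:118998555-118998704, plus strand: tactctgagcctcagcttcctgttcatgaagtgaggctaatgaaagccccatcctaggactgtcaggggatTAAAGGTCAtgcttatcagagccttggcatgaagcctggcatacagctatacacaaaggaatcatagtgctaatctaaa
*Slc8a1* ERR, chr17:81788692-81788841, minus strand: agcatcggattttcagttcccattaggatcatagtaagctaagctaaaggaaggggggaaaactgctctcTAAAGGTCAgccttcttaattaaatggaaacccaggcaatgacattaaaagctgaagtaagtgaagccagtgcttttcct
*Ppara* ERR, chr15:85727365-85727514, minus strand: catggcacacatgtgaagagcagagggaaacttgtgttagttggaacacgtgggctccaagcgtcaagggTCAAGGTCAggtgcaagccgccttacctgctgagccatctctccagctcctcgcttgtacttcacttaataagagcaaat
*Ppara* MEF2, chr15:85727872-85728021, plus strand: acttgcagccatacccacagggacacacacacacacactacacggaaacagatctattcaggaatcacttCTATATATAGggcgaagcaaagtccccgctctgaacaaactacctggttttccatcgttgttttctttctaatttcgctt
The region upstream of *Ppara* held both kinds of match. It was the only KO-only distal region with a MEF2 match that was nearest to a gene of the functional lists used below. The ERR matches lay 676 bp from the region center at *Cacna1c*, 119 bp at *Slc8a1* and 887 bp at *Ppara*. A match describes the letters and does not show binding.

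The targeted gene was examined first. Of the 3483 bp of *Nrip1* coding sequence (chr16:76291185-76294667, within its last exon), control regions covered 2556 bp and KO regions 0 bp. *Nrip1* was also the nearest gene of 1 KO-only distal region, of 2907 bp (chr16:76230301-76233207), which lay 91904 bp downstream of the TSS in intergenic DNA. The labelled cell type was checked against marker genes. A TSS of all 10 CM markers was covered in both lists. The same held for 10 of 12 endothelial markers, with the remaining 2 covered in control only. Of 8 mural markers, 3 were covered in both lists, 1 in the KO list only and 4 in neither, and of 10 fibroblast markers 1 was covered in control only and 9 in neither. The 12 macrophage and leukocyte markers were covered in neither list. Endothelial genes thus carried H3K27ac in both lists. KO-only distal regions made up 3 of 17 distal KO regions nearest to endothelial markers, at *Egfl7* (4154 bp), *Erg* (1294 bp) and *Kdr* (633 bp). The interval of this share is 6.19% to 41.0% and includes the 7.74% that KO-only regions make up of all such distal KO regions. Of distal control regions nearest to endothelial markers, 1 of 23 was control-only, also at *Kdr*. Among CM markers, KO-only distal regions were 3 of 14 (interval 7.57% to 47.6%), with 2 at *Ryr2* and 1 at *Ttn*, and control-only regions 1 of 14, at *Ttn*. For fibroblast, mural and leukocyte markers KO-only distal regions were 0 of 4, 0 of 2 and 0 of 0. The part of non-myocytes in the KO-only regions was not tested.

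The median width of the KO-only distal regions was 2473.5 bp (quartiles 1574 and 3651 bp), against 2465 bp for the 666 control-only regions chosen by the mirrored rule and 4638 bp for the 8648 shared distal KO regions with 3 or more subpeaks. The median rose from 2272 bp at 3 subpeaks to 4201 bp at 4 and 5950 bp at 5, and regions with 6 subpeaks nearest to *Nectin1* and *Sppl3* measured 7614 and 9275 bp. The KO-only regions summed to 2043 kb and the control-only regions to 1786 kb. Since the rule itself used the contrast between the lists, the following counts are descriptions. Without the other limits, 21.5% of all KO regions shared no base with the control list. Among distal KO regions with 3 or more subpeaks under 10000 bp, the 726 were 7.74% of 9374. For control regions the mirrored values were 29.5% and 666 of 9612 (6.93%), so that the order of the lists depended on the limits. The lists also differed in subpeak number, as 39.0% of all KO regions and 31.1% of all control regions had 3 or more.

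**Figure D1:**
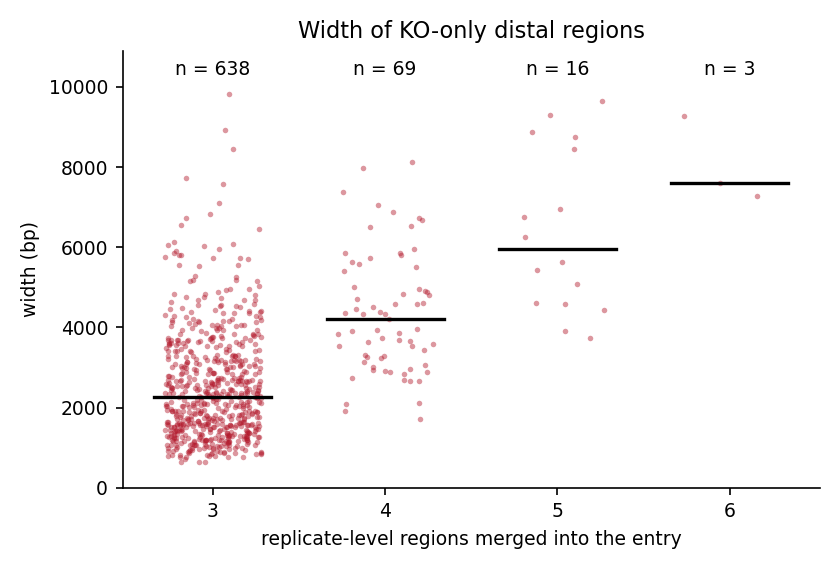
Width in bp (vertical axis) of each of the 726 KO-only distal regions by the number of replicate-level regions merged into it (horizontal axis). Each point is 1 region and the bars are medians, which lie at 2272, 4201, 5950 and 7614 bp.

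By chromosome, the KO-only share of distal KO regions departed most from 7.74% on chromosomes 11 and X, which were singled out after the values were seen. It was 71 of 635 (11.2%, interval 8.96% to 13.9%) on chromosome 11. On chromosome X it was 0 of 97, with an interval that reaches 3.81%. The control-only share was 5.93% on chromosome 11, and 8 of 112 distal control regions on chromosome X were control-only. On the other chromosomes the KO-only share ran from 5.66% on chromosome 3 to 9.71% on chromosome 14.

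Most KO-only distal regions lay within genes. Of the 726, 476 (65.6%, interval 62.0% to 68.9%) were centered in an intron of a protein-coding gene, 38 in an exon, 38 in a noncoding gene and 174 (24.0%) in intergenic DNA. Of the intronic regions, 434 lay inside the gene whose TSS was nearest and 42 only inside another gene. The intronic share differed from that of control-only regions by -3.50 percentage points (interval -8.40 to 1.43) and from that of shared regions by -0.61 points (-4.28 to 2.90), so that no difference was detectable at these numbers. The center lay upstream of the nearest TSS in 317 (43.7%). Within the limits that the rule set on TSS distance, the median distance was 14302 bp for KO-only, 18744 bp for control-only and 13042 bp for shared regions, and 38.2%, 30.8% and 42.9% lay within 10000 bp. An annotated noncoding TSS lay within 1000 bp of the center of 40 KO-only regions (5.51%), against 2.85% of control-only regions (difference 2.66 points, interval 0.54 to 4.82) and 5.04% of shared regions. Median GC content of the central 1000 bp was 46.7% in KO-only, 43.7% in control-only and 45.3% in shared regions.

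KO-only distal regions were mostly found beside regions that both genotypes carried. As the same pair of lists chose them, the following shares are descriptions. A shared KO region lay within 5000 bp of 369 of the 726 (50.8%, interval 47.2% to 54.4%) and within 25 kb of 638 (87.9%). Within the distance commonly used to stitch neighboring enhancers, midway between 0 and 25 kb, 551 (75.9%, interval 72.7% to 78.9%) had one. At this distance the share was 73.9% for control-only regions, 79.6% for shared regions and their nearest other shared region, and 65.8% for the 6549 KO-only distal regions with 2 subpeaks. The median gap from a KO-only distal region to the nearest shared region was 4904 bp and to the nearest control region 3423 bp. Only 3 lay within 100 bp of a control region, 111 (15.3%) within 1000 bp and 455 (62.7%) within 5000 bp. In the ring from 5 to 50 kb around the center, the median covered length was 15837 bp in the KO list and 14206 bp in the control list. The KO list covered more of the ring for 466 regions (64.2%) and the control list for 245 (33.7%). Around control-only regions these shares were 50.5% and 47.0%, and around shared regions 55.7% and 42.8%. Another KO-only distal region lay within the stitching distance of 51 of the 726 (7.02%), in 25 groups of 2 or 3. For control-only regions this share was 28 of 666 (4.20%), while within 5000 bp the shares were 2.89% for KO-only and 3.30% for control-only regions, so that the order depended on the distance. In the larger sets of shared regions and of KO-only distal regions with 2 subpeaks, 42.3% and 22.2% had another region of their set within the stitching distance.

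The TSS nearest to a KO-only distal region often lay outside the regions of both lists. As the lists hold no signal, such a TSS is not shown to lack H3K27ac. It was covered in both lists for 279 (38.4%, interval 35.0% to 42.0%) and in neither for 341 (47.0%). For control-only regions these shares were 45.8% and 39.6%, and for shared regions 56.9% and 32.5%. The rule bears on these values, since a shared region may itself cover a TSS in both lists and a KO-only region may not. KO-only distal regions with 2 subpeaks had the nearest TSS covered in both lists in 38.8% and in neither in 50.4%. The level depended on the TSS used. Any TSS of the nearest gene was also counted, an alternative chosen after seeing the data. The nearest gene then had 1 or more TSS covered in each list for 529 KO-only regions (72.9%). This held for 80.8% of control-only regions and 83.8% of shared regions. No TSS of the nearest gene was covered in either list for 106 KO-only regions (14.6%). By the nearest TSS again, 28 KO-only regions had it covered in the control list only and 45 in the KO list only, by another region.

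**Figure D2:**
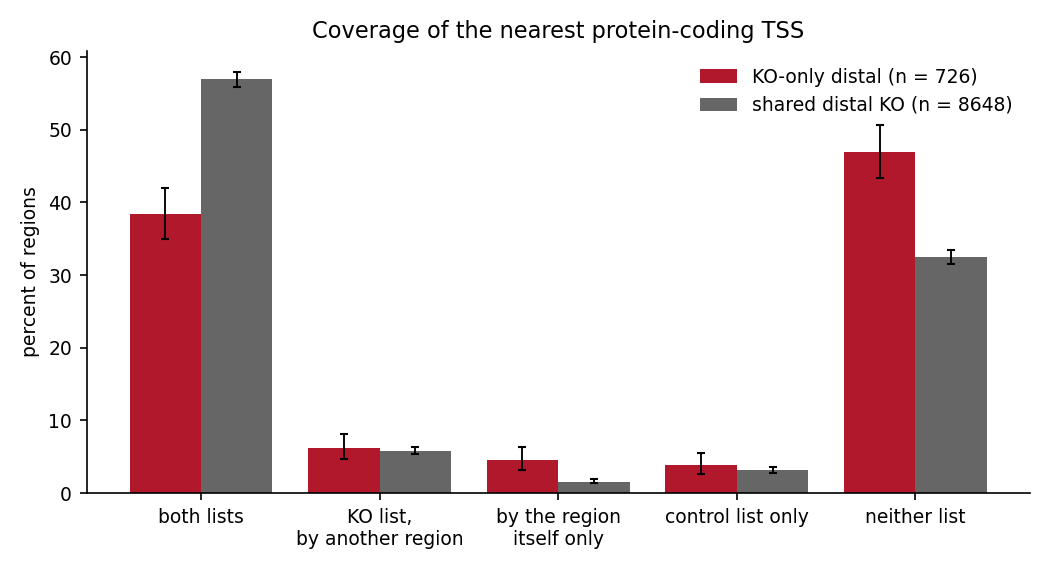
Percent of KO-only distal regions (n = 726) and of shared distal KO regions (n = 8648) by which list covers the nearest protein-coding TSS, with Wilson 95% intervals as error bars. KO-only regions had the TSS covered in both lists in 38.4% and in neither in 47.0%, against 56.9% and 32.5% of shared regions, which may cover the TSS themselves.

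A smaller group of 33 KO-only distal regions (4.55%, interval 3.25% to 6.31%) reached the nearest TSS themselves, with no control region over it. Of the control-only regions, 8 of 666 (1.20%, interval 0.61% to 2.35%) reached theirs in the same way, and of the KO-only distal regions with 2 subpeaks, 19 (0.29%). The latter share is limited by width, as a region centered more than 1000 bp from a TSS must be wide to reach it. Regions with 2 subpeaks had a median width of 1173 bp and an upper quartile of 1753 bp. Among the 33, the median width was 4048 bp and the median distance from TSS to center 1416 bp, so that they are distal by their center only, and 28 were centered downstream of the TSS. For 27 of the 33 no TSS of the gene was covered in the control list. The widest lay at *Sppl3* (9275 bp), which encodes an intramembrane protease, *Ptger4* (8759 bp), a prostaglandin receptor, and *Htra1* (7964 bp), a secreted serine protease. Others lay at *Magi1*, a scaffold protein of cell junctions (6680 bp), *Sav1*, the adaptor of the Hippo kinases (4537 bp), and *Pias1*, a SUMO ligase (4394 bp), which were picked after their values were seen.

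The 726 regions were nearest to 651 of the 21755 protein-coding genes. Of these genes, 583 had 1 region, 61 had 2 and 7 had 3, so that 68 genes (10.4%) had 2 or more. For the control-only regions, 54 of 600 genes had 2 or more. A total of 79 genes had both a KO-only and a control-only distal region, which is 12.1% of the former and 13.2% of the latter. The 7 genes with 3 KO-only distal regions were *Htra1*, *Cacna1c*, *Fam122a*, *Prdm16*, *Map4*, *Setbp1* and *Med13l*. Their 3 regions summed to between 7086 bp at *Med13l*, a Mediator subunit, and 16149 bp at *Htra1*. *Cacna1c* was the only 1 of the 7 with a control-only distal region.

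*Htra1* (ENSMUSG00000006205, chr7:130936111-130985660, plus strand) had the largest summed width. Its regions measured 7964 bp over the TSS (chr7:130934616-130942579), 4646 bp (chr7:130958942-130963587) and 3539 bp (chr7:130964210-130967748), the latter 2 in introns. All regions nearest to *Htra1* covered 28021 bp in the KO list and 5706 bp in the control list, and no TSS of the gene was covered in control CMs. At *Cacna1c* (ENSMUSG00000051331, chr6:118587240-119196418, minus strand) the 3 regions measured 5768, 4797 and 3744 bp, all in introns. All regions nearest to *Cacna1c* covered 71583 bp in the KO list and 50202 bp in the control list. The 3 regions nearest to *Fam122a* summed to 13876 bp and lay in introns of a neighboring gene. At *Prdm16*, a transcriptional regulator of the compact myocardium, 3 of 17 distal KO regions were KO-only and 0 of 8 distal control regions control-only. At *Map4*, which encodes a microtubule-associated protein, all regions covered 74192 bp in the KO list and 44227 bp in the control list. *Apbb2*, *Meox2* and *Arhgef3* followed with 2 regions each, of 13131, 12291 and 11065 bp in sum. *Apbb2* also had 3 control-only distal regions. The covered length was not higher in the KO list at every gene with KO-only distal regions. All regions nearest to *Meox2* covered 125037 bp in the KO list and 130831 bp in the control list, and those nearest to *Setbp1* 42868 and 48462 bp.

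**Figure D3:**
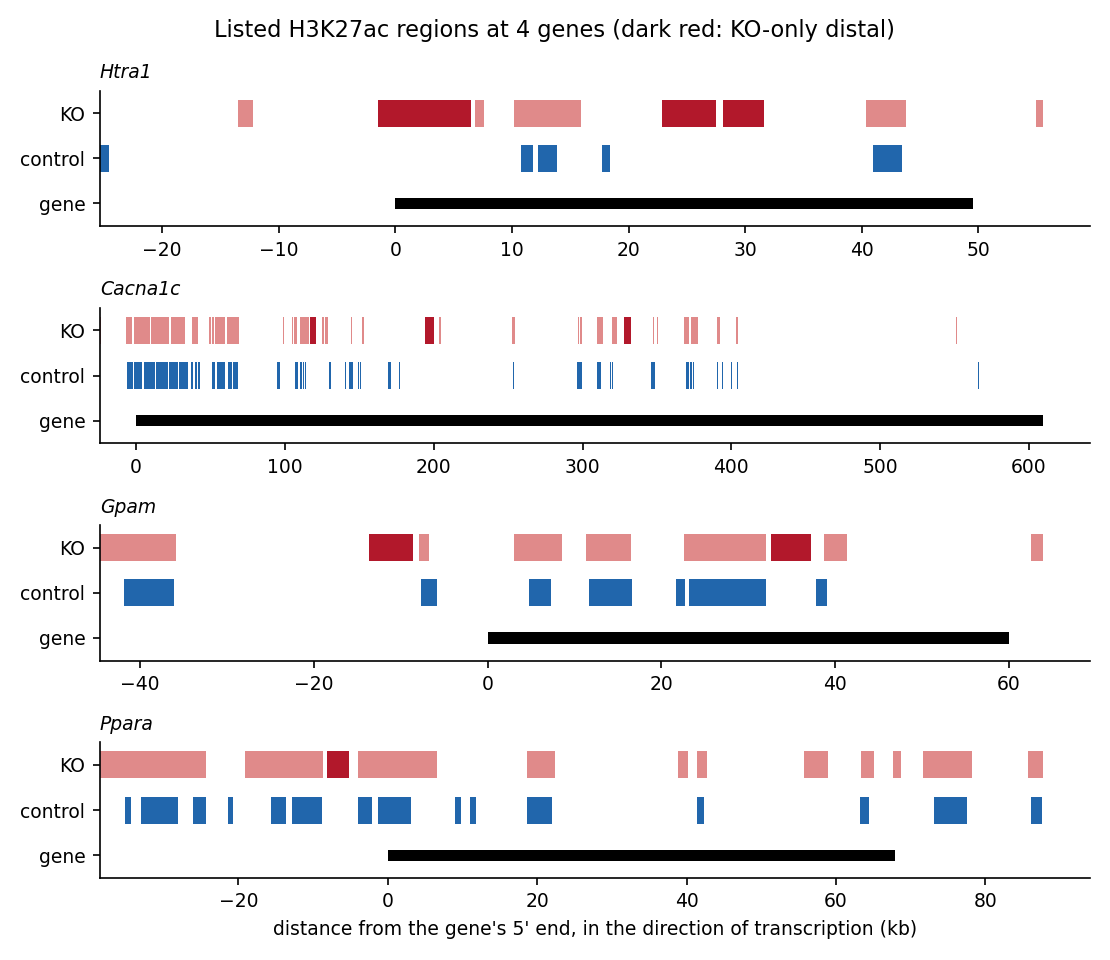
Regions of the KO list (dark red for KO-only distal regions, light red for all others) and the control list (blue) along *Htra1*, *Cacna1c*, *Gpam* and *Ppara*, with the gene body in black. The horizontal axis is the distance in kb from the 5' end of the gene in the direction of transcription, and *Htra1* shows 3 KO-only distal regions, 1 of them over its start.

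The 10 widest KO-only distal regions were all centered in introns and measured between 8117 bp and 9821 bp. The widest, at chr17:75517810-75527630, was nearest to *Fam98a* but lay in an intron of another gene. It was followed by *Rnf144a*, a ubiquitin ligase (9642 bp, chr12:26347837-26357478), and *Mapkap1*, a subunit of mTOR complex 2 (9300 bp, chr2:34486025-34495324). The *Mapkap1* region held 4 ERR matches. *Sppl3* came next, followed by *Lcor*, a ligand-dependent nuclear receptor corepressor, with 8926 bp at chr19:41508637-41517562. The others were nearest to *Arhgef3*, a guanine nucleotide exchange factor (8869 bp), *Ptger4*, *Msi2*, an RNA-binding protein (8456 bp), *Dst*, a cytoskeletal linker (8452 bp), and *Unc5b*, a netrin receptor (8117 bp). Control regions were close to some of them, at 467 bp from the *Unc5b* region and 478 bp from the *Dst* region, and farther from others, at 17278 bp from the *Ptger4* region. All regions nearest to *Rnf144a* covered less in the KO list than in the control list (31619 and 40226 bp), as did those nearest to *Ptger4* (35237 and 41790 bp).

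Across 10 lists of genes of cardiac metabolism, contraction and signalling, with 238 genes, 32 genes were nearest to 39 KO-only distal regions. These were 39 of 415 distal KO regions at these genes (9.40%, interval 6.95% to 12.6%), and the background of 7.74% lay within this interval. Control-only regions were 20 of 366 (5.46%, interval 3.56% to 8.29%), against 6.93% over all genes. No list had an interval that left out the background, and the counts are given as a description.

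Calcium cycling and excitability had the most, with 10 of 86 distal KO regions KO-only (11.6%, interval 6.44% to 20.1%) and 3 of 72 distal control regions control-only. Besides *Cacna1c*, they were nearest to *Casq2*, the calsequestrin of the sarcoplasmic reticulum (3928 bp), *Slc8a1* (3737 bp, 5 subpeaks), *Abcc9*, the regulatory subunit of cardiac ATP-sensitive potassium channels (2836 bp), and *Ryr2*, the calcium release channel (2 regions, 1987 bp in sum). Regions of 2137 bp and 2011 bp lay at *Kcnd3*, a potassium channel, and *Jph2*, which holds the dyad together. Cardiac transcription factors followed with 9 of 77 (11.7%, interval 6.27% to 20.7%), against 2 of 50 control-only. Here *Prdm16* had 7761 bp in sum, *Tbx20* 3674 bp, *Mef2a* 2938 bp and *Myocd*, the SRF coactivator, 2603 bp. *Mef2a* also had a control-only region of 2412 bp, which lay 60 bp from the nearest KO region. Among sarcomere genes 4 of 36 were KO-only, 2 of them at *Ldb3*, a Z-disc protein (4184 bp in sum), and 1 at *Ttn* (1591 bp). Of distal control regions at sarcomere genes, 3 of 27 were control-only, the same share of 11.1%, 1 of them at *Ttn* (1143 bp). Several of the KO-only regions of these 3 lists lay within 1000 bp of a control region, at 990 bp for *Tbx20*, 742 bp for *Mef2a*, 662 bp for 1 at *Ryr2* and 335 bp for 1 at *Ldb3*.

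For metabolism, fatty acid uptake and oxidation had 2 of 29 KO-only, at *Pdk4*, the kinase that limits pyruvate oxidation (3929 bp, chr6:5488660-5492588), and *Lpl*, lipoprotein lipase (2458 bp, chr8:68855434-68857891). Triglyceride and lipid droplet genes had 3 of 29. Of these, 2 were at *Gpam*, the acyltransferase that starts glycerolipid synthesis, with 9722 bp in sum, and 1 at *Lipe*, hormone-sensitive lipase (1730 bp). The *Gpam* regions lay at chr19:55135771-55140925 upstream of the gene and at chr19:55090021-55094587 in an intron. They were 842 and 635 bp from the nearest control region, so that neither counted as KO-only when regions within 1000 bp were taken as shared. The same holds for the other regions given here as less than 1000 bp from a control region, among them that at *Pdk4* (711 bp). Glucose uptake and glycolysis had 2 of 14, at *Pkm* (2688 bp) and *Pfkm* (1407 bp), both glycolytic enzymes. In these 3 lists control-only regions were 0 of 26, 0 of 30 and 0 of 15. Tricarboxylic acid cycle genes had 0 of 16 KO-only, and 2 of 18 distal control regions were control-only, 1 of them at *Suclg2*.

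Among energy regulators and nuclear receptors, 5 of 63 were KO-only. Among them were regions nearest to *Nrip1*, *Ppara* (2901 bp), *Esrrg*, which encodes ERRγ (1629 bp), and *Ncoa1*, a coactivator (1091 bp). All regions nearest to *Ppara* covered 77513 bp in the KO list and 51252 bp in the control list, and those nearest to *Esrrg* 51917 and 55231 bp. The KO-only regions at *Ppara* and *Esrrg* lay 726 and 540 bp from a control region. In this list 4 of 70 distal control regions were control-only, at *Nr3c2*, *Ppargc1a*, *Sirt1* and *Thrb*. Insulin, IGF and FOXO signalling had 3 of 49 KO-only, at *Rptor*, the scaffold of mTOR complex 1 (2790 bp), *Foxo3* (1936 bp) and *Akt1* (1376 bp), and 5 of 43 control-only. Fetal and stress genes had 1 of 17 KO-only, at *Ankrd1* (1520 bp), and 1 of 15 control-only. Of the 13 genes that the study names for CUT&RUN, which is a list chosen on these samples, *Gpam* alone had KO-only distal regions, and *Suclg2* alone had a control-only 1. *Acacb*, *Acot7*, *Acsm5*, *Adra1a*, *Adrb1*, *Cpt1a*, *Dgat2*, *Echdc2*, *Fabp3*, *Kcnj2* and *Tcap* had 0 of either kind. The study called its regions by the fold difference in pooled H3K27ac tags, at any distance from a TSS. A region listed in both genotypes could count there and cannot count here. The counts of 0 are thus not comparable with the regions of the study.

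**Figure D4:**
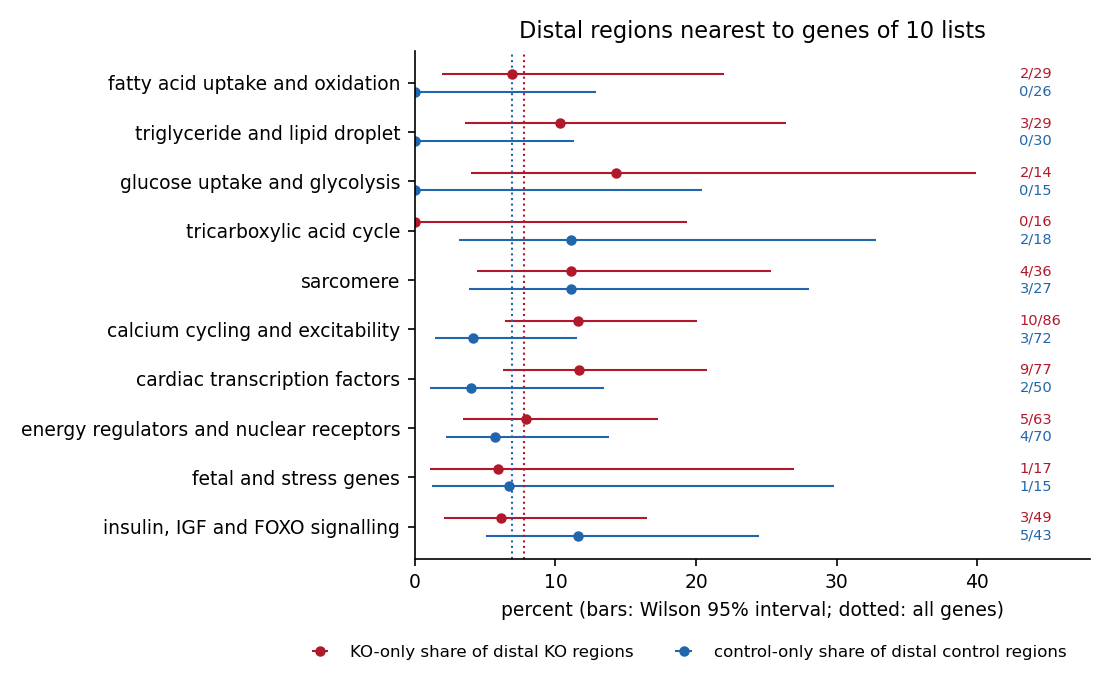
KO-only share of distal KO regions (red) and control-only share of distal control regions (blue) nearest to the genes of 10 lists, in percent with Wilson 95% intervals, with counts at the right. Dotted lines mark the shares over all genes, 7.74% and 6.93%, and every interval holds its line.

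Both strands of the 1000 bp around each center were searched for motifs. The ERR motif was present in 74 of the 726 KO-only distal regions (10.2%, interval 8.20% to 12.6%). It was present in 44 of 666 control-only regions (6.61%, difference 3.59 points, interval 0.66 to 6.51), in 7.97% of shared regions (difference 2.23 points, interval 0.14 to 4.70) and in 7.56% of 1005 windows 20 kb from the same centers that touched no listed region (difference 2.63 points, interval -0.06 to 5.46). KO-only distal regions with 2 subpeaks held it in 8.64% (difference 1.55 points, interval -0.57 to 4.05). In the central 1000 bp, the share was thus above that of control-only and shared regions. No difference from other KO-only distal regions or from the local windows was detectable there. At or above 45% GC, a split chosen after seeing the data, the ERR share was 11.4% in KO-only, 6.34% in control-only and 8.22% in shared regions and 8.37% in the local windows, and below it 8.21%, 6.78%, 7.68% and 6.72%. Per length of whole regions, ERR matches numbered 9.79 per 100 kb in KO-only, 7.28 in control-only and 7.83 in shared regions. A match anywhere in the region was found in 23.4% of KO-only, 16.2% of control-only and 29.8% of the wider shared regions. The difference was 7.20 points from control-only (interval 3.01 to 11.3) and -6.43 points from shared regions (interval -9.52 to -3.07). The central 200 bp held a match in 2.07% of KO-only, 0.75% of control-only and 1.75% of shared regions. KO-only distal regions with 2 subpeaks held one in 2.05%. In this window the difference was 1.32 points from control-only regions (interval 0.03 to 2.70). From shared regions it was 0.32 points, with an interval of -0.54 to 1.66 that includes 0. With C required at the second position of the motif, the shares were 5.51% in KO-only, 2.70% in control-only and 3.61% in shared regions. They were 4.03% in KO-only distal regions with 2 subpeaks (difference 1.48 points, interval -0.04 to 3.44) and 3.88% in the local windows (difference 1.63 points, interval -0.364 to 3.795), and both intervals include 0.

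The MEF2 motif was present in 33 KO-only distal regions (4.55%, interval 3.25% to 6.31%), 3.75% of control-only and 4.59% of shared regions. These differed by 0.79 points (interval -1.37 to 2.93) and -0.05 points (interval -1.42 to 1.77). No difference between these sets of regions was thus detectable in the central 1000 bp. The local windows held it in 1.69% (difference 2.85 points, interval 1.22 to 4.73). Per length of whole regions, MEF2 matches numbered 2.89 per 100 kb in KO-only, 3.47 in control-only and 3.70 in shared regions, and 7.85%, 8.71% and 16.0% of the regions held one. For CArG, the motif of SRF, the share was 5.51% in KO-only regions and 4.48% in the local windows. The motif of GATA factors, spelled AGATAAG, was present in 14.5% and 13.4%, that of TEAD factors, spelled CATTCCA, in 17.5% and 15.5%, that of AP-1, spelled TGANTCA, in 28.8% and 26.5%, and that of NKX2-5, spelled TNAAGTG, in 42.4% and 45.8%. For none of these 5 did the interval of the difference from control-only regions, shared regions or local windows leave out 0. Longer nuclear receptor motifs were rare. DR1, 2 copies of AGGTCA spaced by 1 base, was present in 4 KO-only regions (0.55%), 0.15% of control-only, 0.21% of shared and 0.24% of KO-only distal regions with 2 subpeaks, and 0.20% of the local windows. DR4, the same spaced by 4 bases, was present in 0, for which the interval reaches 0.53%, and in 0.12% of shared regions. Both overlap the ERR motif in AGGTCA, so that a stretch can match more than 1 of them. The glucocorticoid response element was present in 10 KO-only regions (1.38%), 2.10% of control-only, 2.01% of shared and 2.49% of KO-only distal regions with 2 subpeaks, and 1.00% of the local windows. In the central 1000 bp, the intervals of the differences include 0 for each of these motifs and sets.

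**Figure D5:**
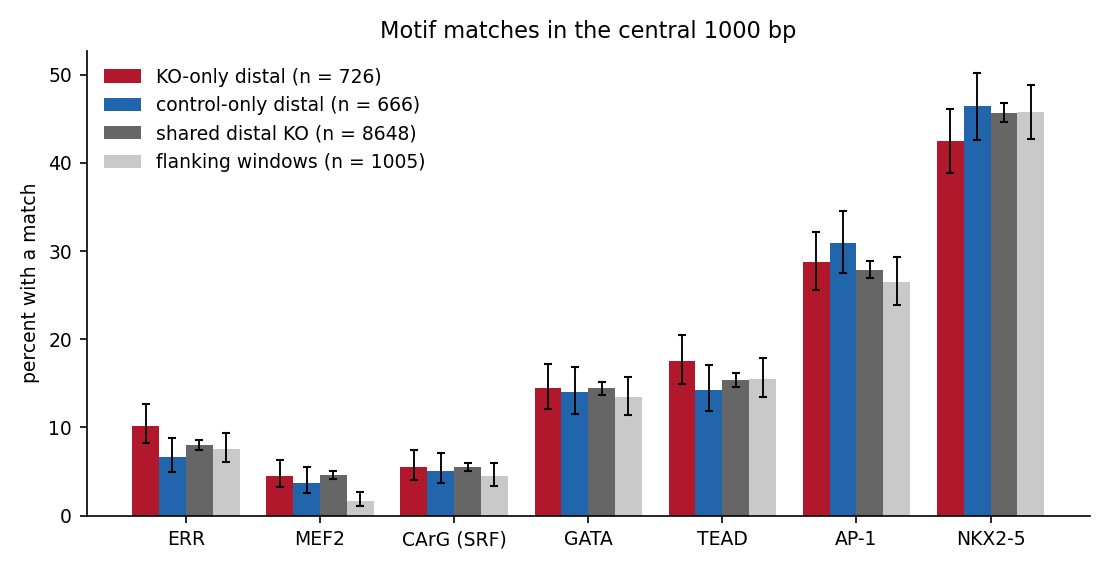
Percent of central 1000 bp windows with a match to each of 7 motifs in KO-only distal, control-only distal and shared distal KO regions and in flanking windows, with Wilson 95% intervals as error bars. The ERR motif was present in 10.2%, 6.61%, 7.97% and 7.56%, and the MEF2 motif in 4.55%, 3.75%, 4.59% and 1.69%.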

How the data were processed

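The 12 libraries form 4 groups of 3, an H3K27ac and an IgG group for each genotype, as the labels give them. Per the submitters' processing notes and the study's methods, Bowtie2 2.4.2 was run against GRCm38, duplicates were taken out by SAMtools, and regions were called per replicate over IgG by HOMER 4.11.1, after which the authors merged regions present in 2 or more of the 3 replicates. The authors deposited 1 list per genotype with start, end and a name that ends in the number of merged regions. The score is the same for every region and was not used. The lists hold no signal, so that depth is unknown.

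A total of 18 KO and 25 control regions on other sequences were left out. TSSs were those of all transcripts of protein-coding genes in GENCODE M21, and sequence came from GRCm38.p6. A region was shared if it overlapped the other list by at least 1 bp. Control-only regions were chosen by the mirrored rule. Local windows of 1000 bp lay 20 kb to either side of each center. The members and lists were chosen with earlier results of these data known. The genes named are from those nearest to the 10 widest regions, the 10 with the most regions (ties by summed width), up to 4 per list by summed width, and those the study names for CUT&RUN. Others were named where a count of 5 or fewer called for it or were picked after their values were seen. Sequences were taken from the 4 widest regions with an ERR match and with a MEF2 match near genes of the functional lists, outside chromosome 18. Other settings for overlap, subpeaks, TSS distance and annotation, width, window and motif were tried. Overlap, TSS, motif and interval steps were tested on simulated data. The software was Python 3.11.15 with matplotlib 3.10.9, numpy 2.4.6 and scipy 1.17.1.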

Additional observations from a re-analysis of the deposited data

How the results depend on the processing

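No paired analysis was possible because each list pools the 3 replicates, and for the same reason no replicate could be left out. Results were recomputed with other limits for overlap, subpeaks, TSS distance, TSS annotation and width, and counts within 1.5 times and shares within the interval of the value reported are not repeated here. The number of regions was 1660 when sharing required 50% of the length of a region to be covered, 88 with 4 or more subpeaks and 7275 with 2 or more. The KO-only share of distal KO regions was then 17.7%, 2.60% and 24.8%, and it was 6.56% when regions within 1000 bp counted as shared and 6.60% with no limit on width. The number of genes with 2 or more regions was 228, 0 and 1568, and 42 with the TSSs of all annotated genes.

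The intronic share was 71.6% with 4 or more subpeaks and 61.2% with the TSSs of all genes. The share with a shared region nearby was 79.5% with 4 or more and 66.8% with 2 or more subpeaks, and 50.8% within 5 kb and 87.9% within 25 kb. The share with the nearest TSS covered in both lists was 45.8% with 50% coverage required, 31.8% with 4 or more subpeaks, 28.8% with the TSSs of all genes and 45.6% when a region within 1000 bp of the TSS sufficed. It was 57.8% with 1 TSS per gene and 72.9% with any TSS of the gene, both chosen after seeing the data. The ERR share was 2.07% in the central 200 bp, 23.4% in whole regions and 5.51% with C at the second position of the motif. The MEF2 share was 1.24% in the central 200 bp and 7.85% in whole regions. The cause of these changes was not tested, beyond the fewer or more bases and regions that the settings take in.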

Other observations

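The same limits without the distance to a TSS show where genotype-only regions with 3 or more subpeaks lie. Of 1193 KO-only regions under 10000 bp, 358 were centered within 1000 bp of a protein-coding TSS and 109 over 100 kb from one. Of 906 such control-only regions, 88 were centered within 1000 bp and 152 over 100 kb away. The pools that were filtered differ, since 39.0% of all KO regions and 31.1% of all control regions had 3 or more subpeaks. How many regions of each whole list lie this near to a TSS is not given here. The counts are thus a description and not a contrast between genotypes. The largest group of neighboring KO-only distal regions was at *Setbp1*, where 3 regions of 7394 bp in sum lay between 79071199 and 79080319 on chromosome 18. The next by summed width were pairs at *Fam122a* (10744 bp), *Podxl* (9643 bp) and *Nectin1* (8946 bp).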
